A study of Mus musculus with 5 samples.

Results

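The genes described here encode enzymes that alter and clear small molecules: the cytochrome P450 genes of families 2, 3 and 4, the UDP-glucuronosyltransferases (Ugt), the glutathione S-transferases (Gst) and the sulfotransferases (Sult). Members are the protein-coding genes whose symbols carry these family names. That rule uses no measured value, but the families were chosen with earlier results of these data known. They number 142 of the 55471 genes in the tables, with 78 cytochrome P450, 21 Ugt, 22 Gst and 21 Sult genes. All RNA came from pieces of frozen colon of male C57BL/6 mice, 11 weeks old, in which colitis had been induced with TNBS, a hapten, 3 days earlier. One group of 2 libraries came from mice given vehicle, and the other group of 3 libraries from mice given propyzamide, a herbicide. Both groups therefore carried TNBS, and no library without it was analysed here. The comparison is of the propyzamide libraries with the vehicle libraries in this colitis. Neither the dose nor the route nor the segment of colon is stated in the labels. Nor do they say whether each library is a separate animal, so a p-value here reflects only the variation among these samples, which may be technical.

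Cytochrome P450 enzymes bind haem and oxidise their substrates, which include drugs, steroids, fatty acids and eicosanoids. The other families join the product to a polar group: Ugt enzymes add glucuronic acid, Sult enzymes add sulfate and Gst enzymes add glutathione. In the gut these enzymes sit mainly in the absorptive epithelium, and many family members known from the liver are low or absent there.

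Library totals ran from 1573592 to 2706840 estimated counts. Leaving out mitochondrial genes and rRNA-like loci, 823540 to 1328793 remained. Values between groups are given as CPM, counts per 1000000 of a library size scaled by edgeR's trimmed-mean method. On this scale 1 count was worth 0.340 to 0.609 CPM, and 3 counts over a whole group, the limit that a count of 0 allows, came to 0.718 CPM in vehicle and 0.459 CPM in propyzamide. Intervals and floors cover counting error only. All the vehicle libraries carried 1 second index sequence and all the propyzamide libraries another, so index and treatment cannot be told apart.

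Of the 142 members, 47 had enough counts for the test, 95 did not, and 25 of those had no count in any library. The 95 untested members held 238 and 116 counts in the vehicle libraries and 84, 93 and 96 in the propyzamide libraries. Scaled by gene length, the olfactory and vomeronasal receptor genes, which the colon is not known to use, predict 177, 111, 11.4, 90.5 and 27.1 counts in the same libraries. In vehicle replicate 2 and propyzamide replicate 2 the untested members thus lay close to this background. They lay above it in vehicle replicate 1 (1.34-fold) and further above it in propyzamide replicates 1 and 3 (7.36-fold and 3.54-fold).

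Measured per length as TPM, the RSEM measure that divides counts by transcript length, the most abundant member was Cyp2c55, a colon cytochrome of the arachidonate-metabolising Cyp2c group, with a mean of 443 over the 5 libraries. Gstp1, the pi-class glutathione S-transferase, followed at 329, then Gsto1 of the omega class at 205 and Gstm1 of the mu class at 126. The sulfotransferases Sult1b1 and Sult1a1 stood at 92.7 and 69.6, and Cyp2d34 and Gstp2 at 63.4 and 63.3. Per library, Cyp2c55 had TPM values of 300, 99.6, 414, 796 and 606, and Gstp1 had 678, 167, 388, 127 and 284, in the order vehicle replicates 1 and 2, then propyzamide replicates 1 to 3, which holds for every series of 5 values below. The ranges of these neighbours overlapped, so the order of their mean levels is not resolved by these libraries. In vehicle both libraries had more Gstp1 than Cyp2c55 per length, and in propyzamide all 3 had more Cyp2c55 than Gstp1. Cyp2c55 alone made up 40.6% and 24.7% of the summed TPM of the 78 cytochrome P450 genes in vehicle, and 60.9%, 72.1% and 70.0% in propyzamide.

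Of the 47 tested members 4 passed the edgeR quasi-likelihood test at a Benjamini-Hochberg adjusted p of 0.05, which is 8.51%, against 1.90% of all 12024 genes tested. All 4 were among the 19 tested cytochrome P450 genes (21.1%): Cyp2c65 and Cyp4f14 rose, where 0.690% of all genes rose, and Cyp2c68 and Cyp2d12 fell, where 1.21% of all genes fell. No tested Ugt, Gst or Sult gene passed. Because the families were chosen with earlier results of these data known, these shares describe the list and do not test it. At an unadjusted p under 0.05 these families had 1 of 5, 4 of 18 and 1 of 5 genes, and the cytochrome P450 genes 9 of 19, against 18.2% of all genes. DESeq2 called 0 of 5 Ugt, 2 of 18 Gst and 0 of 5 Sult genes, where it called 4.70% of all genes, and limma on log2(TPM + 1) called 1, 1 and 0, where it called 4.08% of all genes. The values of the 2 groups did not overlap for 18 of the 47 members (38.3%), a share near the 37.5% of all genes, with 9 higher and 9 lower in propyzamide. Median log2 fold changes were 0.31 for the tested cytochrome P450 genes, 0.33 for Ugt, -0.34 for Gst and 0.17 for Sult, against -0.02 for all genes. The number of members that passed depended on single libraries. With vehicle replicate 1 left out none of the 4 passed and 1 other member, Ugt1a1, did, while 0.289% of all genes passed. With vehicle replicate 2 or propyzamide replicate 3 left out Cyp2c65 and Cyp2c68 passed, with 0.407% and 0.666% of all genes. With propyzamide replicate 1 left out 8 members passed and 4.47% of all genes. Where 1 vehicle library is left, its spread is assumed to be that of the propyzamide group. In RNA from whole pieces of tissue, fewer cells of a type and less RNA per cell cannot be told apart.

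**Figure D1:**
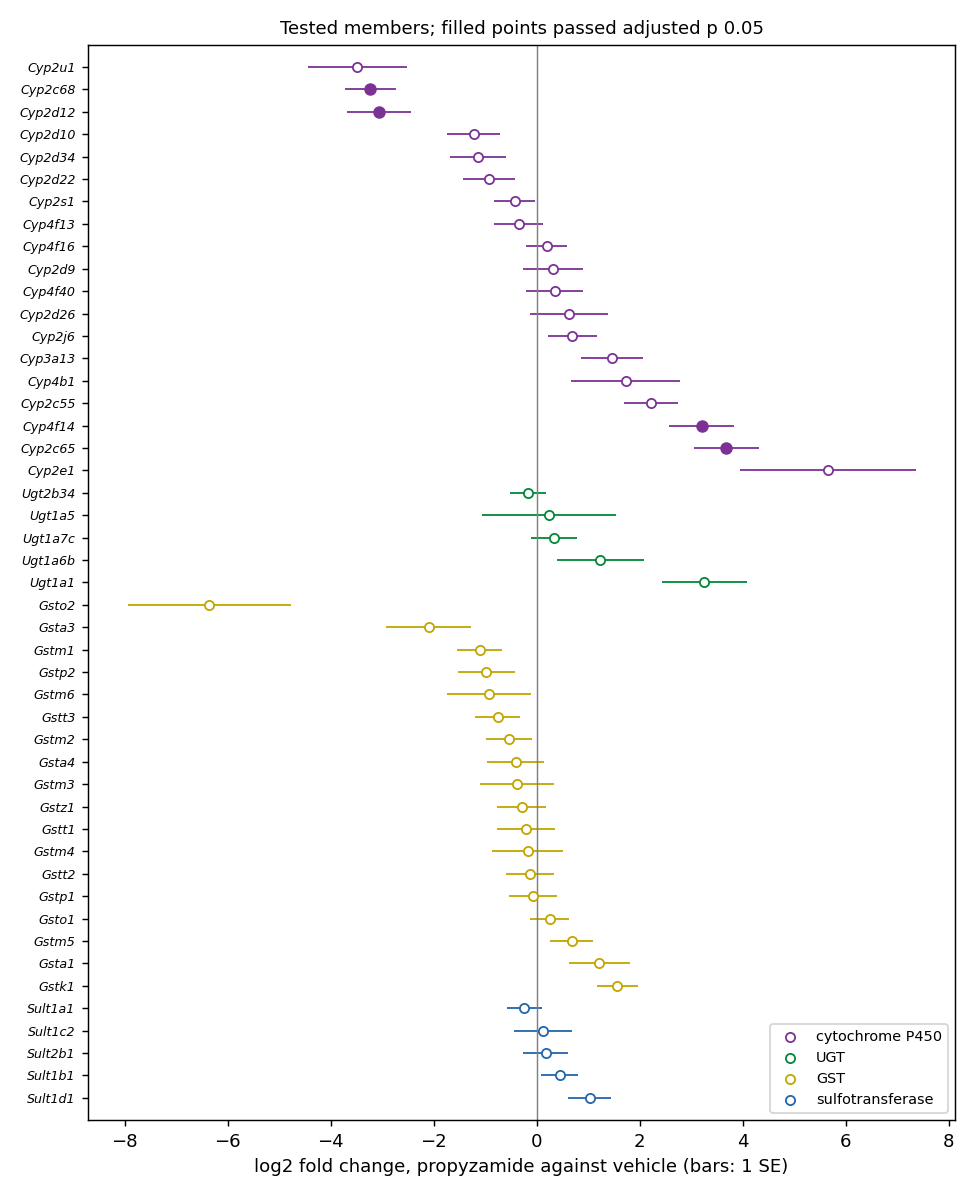
Log2 fold change of propyzamide against vehicle for the 47 tested members, grouped by family, with bars of 1 SE from the edgeR fit; filled points passed an adjusted p of 0.05. The 4 filled points are Cyp2c65 and Cyp4f14 on the right and Cyp2c68 and Cyp2d12 on the left, and the 18 Gst genes, none of them filled, lie mostly left of 0.

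Markers of tissue and cell type moved with the groups, and their part in the results below was not tested. With no label for the segment of colon, treatment and sampled segment cannot be told apart. Summed CPM of 8 markers of proximal colon and small intestine was 36.4 and 50.5 in vehicle against 299, 1075 and 580 in propyzamide. Summed CPM of 4 markers of distal colon was 208 and 241 against 33.3, 30.3 and 15.2, with Hoxd13, a homeobox gene of the hindmost gut, at 33.5 and 51.6 CPM in vehicle and at 0 in all 3 propyzamide libraries. Neither of these sums overlapped between groups, but the list was not uniform: Hoxb13 and Hoxd13 made up most of the distal sum in vehicle, and Hoxa13 went the other way, at 4.55 and 9.08 against 10.2, 13.9 and 10.3 CPM. The sum for absorptive colonocytes, over 8 genes, was 1895 and 3492 CPM against 6744, 8924 and 9470, and that for smooth muscle, also over 8, was 482 and 3117 against 5488, 8146 and 9157. All 8 smooth muscle markers had positive fitted values, while the colonocyte markers were 4 positive and 4 negative with a median of 0.16, and Guca2a and Car1 supplied most of the difference in their sum. The sum of 7 general epithelial markers was 4388 and 3699 against 6020, 5100 and 4546 CPM, and that of 7 goblet cell markers was 8604 and 3075 against 6687, 681 and 4441. Epithelial sums were thus less than 2-fold apart in all 5 libraries, while goblet cell sums overlapped and were lowest in propyzamide replicate 2. The liver's defining genes were at or near 0: Serpina1c had no count, Alb was at 0 in 4 of 5 libraries and at 1.22 CPM in propyzamide replicate 3, and all 6 liver markers summed to 5.79 to 23.8 CPM, mostly Tat, which was at 4.55 to 22.7 CPM.

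**Figure D2:**
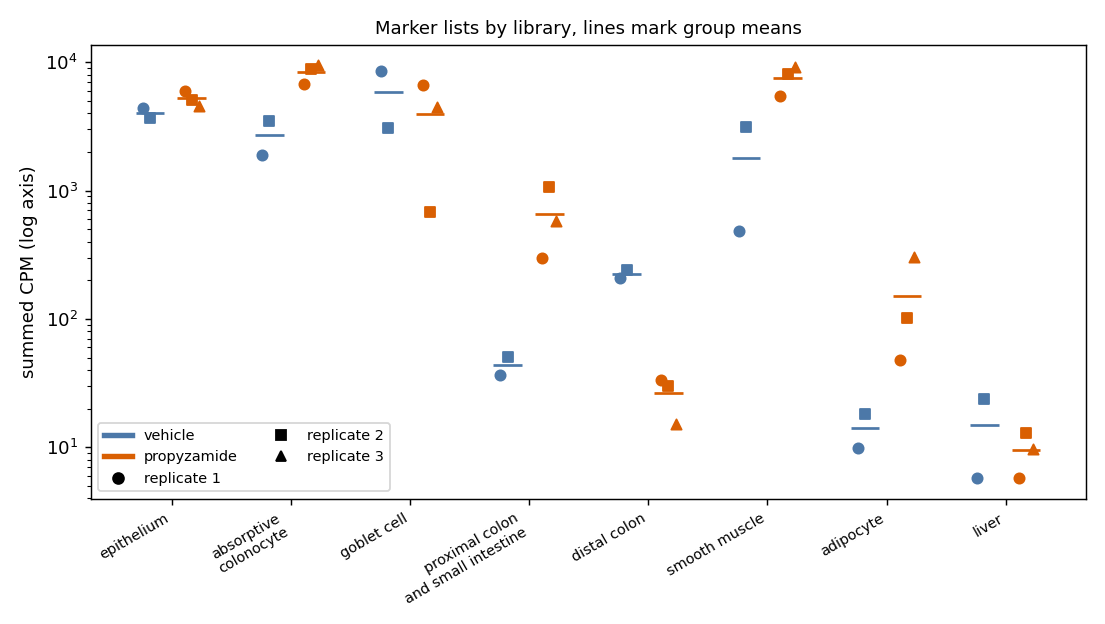
Summed CPM of each marker list on a log axis, 1 point per library and a line at each group mean. The distal colon points lie at 208 and 241 in vehicle and at or below 33.3 in propyzamide, the points for proximal colon and small intestine lie the other way, and the epithelium points lie between 3699 and 6020.

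The main changes were in the Cyp2c genes, whose products oxidise arachidonic acid and many drugs. Cyp2c65, a cytochrome of the intestinal tract, had 3.31 and 11.9 CPM in vehicle and 53.0, 73.9 and 158.9 CPM in propyzamide. Every propyzamide library was above both vehicle libraries, the nearest pair being 53.0 and 11.9. Its log2 fold change was 3.68 ± 0.64 (SE; edgeR adjusted p = 0.0167), from 8 and 21 counts against 156, 144 and 261. The call passed in 15 of 16 refits. With vehicle replicate 1 left out it did not pass (2.96, edgeR adjusted p = 0.209), while without vehicle replicate 2 the value was 4.87.

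Cyp2c68, another gene of the Cyp2c group, went the other way. It had 79.4 and 58.4 CPM in vehicle and 12.9, 3.59 and 4.26 CPM in propyzamide, with all 3 propyzamide libraries below both vehicle libraries. Its log2 fold change was -3.23 ± 0.50 (SE; edgeR adjusted p = 0.00881), from 192 and 103 counts against 38, 7 and 7. This call also passed in 15 of 16 refits. It did not pass with vehicle replicate 1 left out (-3.02, edgeR adjusted p = 0.122), and the value without propyzamide replicate 1 was -4.16. Within each library the ratio of Cyp2c65 to Cyp2c68 counts was 0.0417 and 0.204 for vehicle against 4.11, 20.6 and 37.3 for propyzamide, a pair chosen after their values were seen. The more abundant gene of the pair was therefore Cyp2c68 in both vehicle libraries and Cyp2c65 in all 3 propyzamide libraries.

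Cyp2c55 had 332 and 240 CPM in vehicle and 711, 1838 and 1445 CPM in propyzamide, again without overlap. Its log2 fold change of 2.22 ± 0.52 did not pass (edgeR adjusted p = 0.0504). Of 16 refits 6 passed, with adjusted p from 1.99e-05 to 0.278, among them DESeq2 (2.23, adjusted p = 6.68e-05) and the edgeR fit on protein-coding genes only (adjusted p = 0.0453). Cyp2c55 carried most of the difference in the family's sum. All 78 cytochrome P450 genes summed to 785 and 917 CPM in vehicle against 1175, 2599 and 2051 CPM, and without Cyp2c55 the sums were 453 and 677 against 464, 761 and 606, which overlap.

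The sequences that follow compare these enzymes at the loop that holds the haem. Each stretch was found by its amino acid pattern, F..G.R.C.G, so the amino acids named there are the same in every line. Each line is 30 bases of coding sequence, 5′ to 3′, from the GENCODE M21 transcript (GRCm38), and the capitals mark the codon of the cysteine that binds the haem iron.
Cyp2c55: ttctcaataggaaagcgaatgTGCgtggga
Cyp2c65: ttctcaacaggaaaacggattTGTgtggga
Cyp2c68: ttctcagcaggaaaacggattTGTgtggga
Cyp2d12: ttttcagcaggccgcagatcaTGCctgggg
Cyp4f14: ttctcggcgggacccaggaacTGCatagga
In this stretch Cyp2c65 and Cyp2c68, which changed in opposite directions, differ at 1 base, and Cyp2c55 differs from them at 5 and 6 bases. Cyp2d12 and Cyp4f14 differ from the Cyp2c lines at 11 to 14 bases. Over the whole coding sequence identity was 70.9% between Cyp2c65 and Cyp2c68, 75.5% between Cyp2c55 and Cyp2c65 and 72.8% between Cyp2c55 and Cyp2c68.

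Closer copies exist for both called genes. Cyp2c66 has 96.3% coding identity with Cyp2c65, and 20.7% of the 50-base words of the Cyp2c65 transcript also occur in another gene, nearly all of them in Cyp2c66. Cyp2c66 was listed at 0 in all 5 libraries. Cyp2c68 shares 43.3% of its 50-base words, most often with Cyp2c40, and has 97.2% and 96.5% coding identity with Cyp2c67 and Cyp2c69. Those 3 relatives held few reads: Cyp2c40 had 3, 0, 5, 0 and 1 counts, Cyp2c67 had 0, 1, 0, 0 and 0, and Cyp2c69 had 3, 3, 11, 3 and 10. Division of shared reads between copies can move counts of Cyp2c65 and Cyp2c68, so both are uncertain to that extent, while Cyp2c55 shares 0.514% of its words.

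The 14 genes of the Cyp2c cluster lie on chromosome 19 (GRCm38) and 1 further member, Cyp2c23, lies 3818 kb beyond them. Cyp2c55, on the plus strand at chr19:39007019-39042693, and Cyp2c65, on the plus strand at chr19:39061015-39093944, are the first and second genes, 18.3 kb apart. Cyp2c68, on the minus strand at chr19:39688834-39741054, is the eighth. The other 11 genes of the cluster had mean levels between 0 and 1.86 TPM, so expression in these libraries was concentrated in 3 of the 14 genes.

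**Figure D3:**
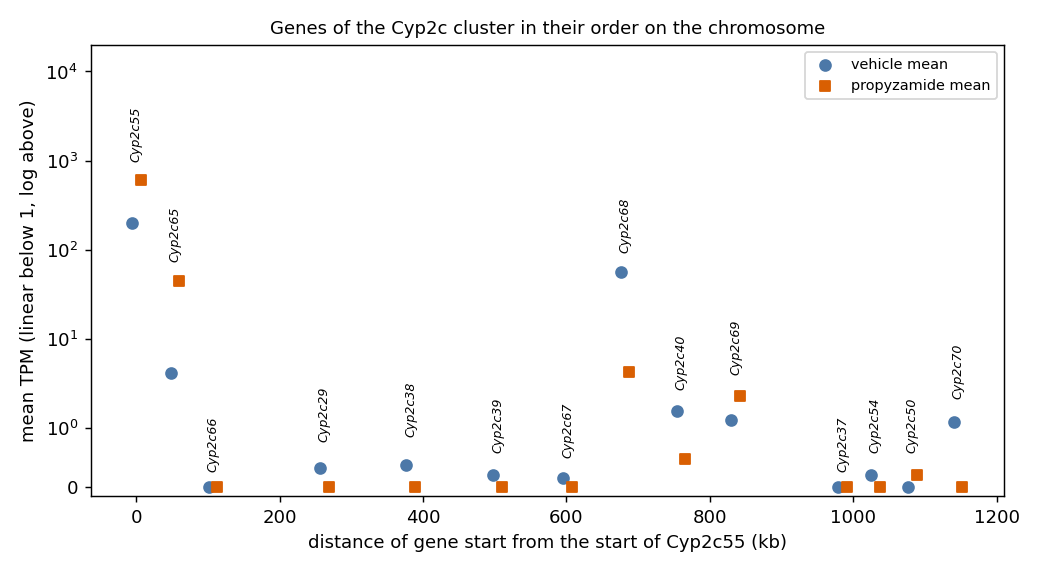
Mean TPM in each group for the 14 genes of the Cyp2c cluster against the distance of the gene start from the start of Cyp2c55 in kb, on an axis that is linear below 1 and logarithmic above. Cyp2c55 and Cyp2c65, which neighbour each other, are higher in propyzamide, Cyp2c68 is higher in vehicle, and the other genes lie near the bottom of the axis.

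The 120 bases before the RefSeq start of these 3 genes (RefSeq, GRCm38.p6) are shown because the neighbours Cyp2c55 and Cyp2c65 were both higher in propyzamide and their relative Cyp2c68 was lower. They are written 5′ to 3′ on the gene's strand, and capitals mark an exact TATAAA.
Cyp2c55, chr19:39006899-39007018, plus strand: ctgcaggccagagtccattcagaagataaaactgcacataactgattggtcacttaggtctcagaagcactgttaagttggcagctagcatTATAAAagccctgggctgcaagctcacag
Cyp2c65, chr19:39060886-39061005, plus strand: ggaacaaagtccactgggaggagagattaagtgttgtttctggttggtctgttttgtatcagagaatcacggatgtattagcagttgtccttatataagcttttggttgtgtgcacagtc
Cyp2c68, chr19:39741102-39741221, minus strand: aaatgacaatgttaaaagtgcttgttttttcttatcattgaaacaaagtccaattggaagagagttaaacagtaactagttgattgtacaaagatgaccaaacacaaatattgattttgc
The TATAAA of Cyp2c55 begins 29 bases before the start. In a search of either strand Cyp2c65 has one 162 bases before its start, outside the stretch shown. The stretch shown for Cyp2c65 holds the similar string tatataa, which an exact search for TATAAA does not mark. Aligned over 250 bases before the start, Cyp2c55 and Cyp2c65 were 51.8% identical, Cyp2c55 and Cyp2c68 46.6%, and Cyp2c65 and Cyp2c68 47.1%. In the RefSeq windows of 250 bases before to 50 after each start, TATAAA on either strand was present in 30.7% of the 137 windows of the 119 members that matched by symbol, against 13.6% of all 32851 windows. GTTAAT, the core of the HNF1 site, was present on either strand in 16.8% against 7.10%. Among the 53 windows of tested members the shares were 17.0% for TATAAA and 15.1% for GTTAAT, so the higher TATAAA share was mostly that of members with too few counts to test. AGGTCA, the nuclear receptor half-site, was present in 23.4% of member windows and 16.3% of all windows, but in 7.55% of the windows of tested members. The other 3 motifs searched had lower shares among members: GCGTG, the core of the aryl hydrocarbon receptor site, 19.7% against 32.4%, TGACNNNGC, that of the antioxidant response element, 6.57% against 12.4%, and TTTATG, a CDX2-type site, 10.9% against 11.9%. A match is a string of letters in a window and does not show that a factor binds there.

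Cyp4f14, an omega-hydroxylase of leukotrienes and fatty acids (chr17:32905070-32917342, minus strand), had 4.14 and 15.9 CPM in vehicle and 57.8, 152 and 58.4 CPM in propyzamide. The groups did not overlap, and propyzamide replicate 2 was well above the other 2 of its group. The log2 fold change was 3.20 ± 0.64 (SE; edgeR adjusted p = 0.0299), and the gene shares 2.72% of its 50-base words with others. The call passed in 12 of 16 refits. The edgeR adjusted p was 0.305 with vehicle replicate 1 left out (log2 fold change 2.47), 0.0506 with vehicle replicate 2 left out (4.47), 0.0507 with propyzamide replicate 3 left out (3.42) and 0.0556 with the receptor background subtracted (3.19). Its 3 tested relatives did not pass: Cyp4f13 stood at -0.35 ± 0.47, Cyp4f16 at 0.19 ± 0.40 and Cyp4f40 at 0.35 ± 0.55, and the signs of all 3 turned in at least 1 refit. The 9 Cyp4f genes together had 65.8 and 73.8 CPM in vehicle and 121, 189 and 131 CPM in propyzamide. Cyp4v3, a fatty acid hydroxylase of the eye and other tissues, had 9, 9, 6, 10 and 8 counts and was not tested.

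Cyp2d12, a member of the debrisoquine-hydroxylase group (chr15:82555072-82560403, plus strand), had 28.5 and 40.9 CPM in vehicle and 3.74, 7.70 and 0.609 CPM in propyzamide. All 3 propyzamide libraries were below both vehicle libraries, and replicate 3 was lowest with 1 count. The log2 fold change was -3.06 ± 0.62 (SE; edgeR adjusted p = 0.0326), and 12 of 16 refits passed. The edgeR adjusted p was 0.166 with vehicle replicate 1 left out (log2 fold change -3.32), 0.237 with vehicle replicate 2 left out (-2.74) and 0.0607 with propyzamide replicate 3 left out (-2.63), and the call was also lost by limma on log2(TPM + 0.1) (-3.48, adjusted p = 0.0553). Cyp2d12 shares 17.9% of its 50-base words, spread over 12 genes.

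The other 5 tested Cyp2d genes did not pass. Cyp2d34, the most abundant of the group at 63.4 TPM, had 85.6 and 218 CPM against 87.3, 96.0 and 21.9 (log2 fold change -1.14 ± 0.55, edgeR adjusted p = 0.298), and its groups overlapped. Cyp2d10 stood at -1.23 ± 0.52, Cyp2d22 at -0.93 ± 0.50, Cyp2d9 at 0.31 ± 0.58 and Cyp2d26 at 0.63 ± 0.75, with edgeR adjusted p from 0.232 to 0.840. Coding identity was 88.8% between Cyp2d12 and Cyp2d34 and 91.1% between Cyp2d12 and Cyp2d10. The directions were mixed, with 4 of the 6 tested Cyp2d genes negative and a median of -1.03.

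**Figure D4:**
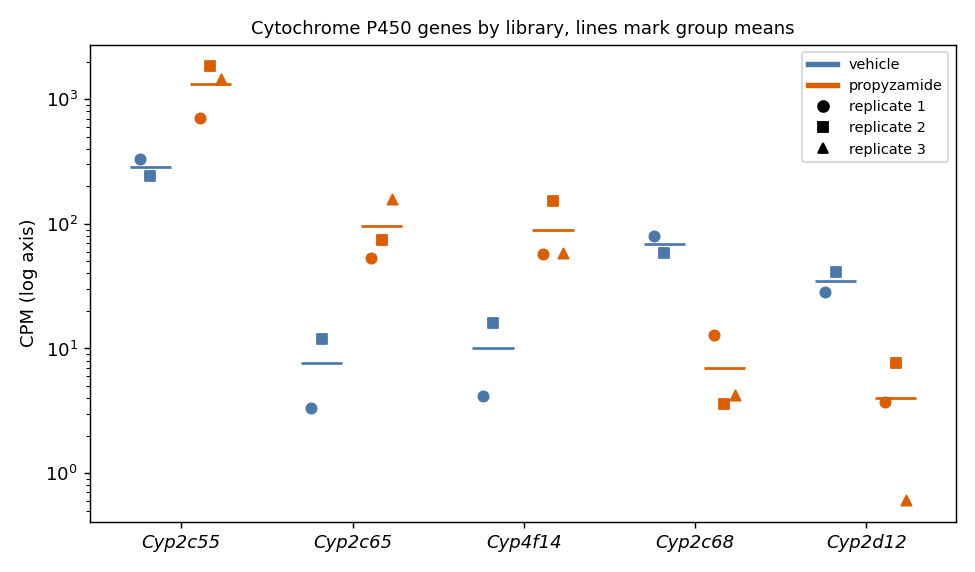
CPM of 5 cytochrome P450 genes on a log axis, 1 point per library and a line at each group mean. For each of the 5 genes the vehicle and propyzamide points do not overlap: Cyp2c55, Cyp2c65 and Cyp4f14 are higher in propyzamide, and Cyp2c68 and Cyp2d12 are lower, with Cyp2d12 at 0.609 CPM in propyzamide replicate 3.

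Among the remaining cytochrome P450 genes none passed the edgeR test. Cyp3a13, the main Cyp3a gene here and a drug oxidase, had 22.7 and 67.0 CPM in vehicle and 62.5, 227 and 78.5 CPM in propyzamide (1.46 ± 0.60, edgeR adjusted p = 0.219; passed in 2 of 16 refits). Its groups overlapped, since vehicle replicate 2 was above propyzamide replicate 1. Of the liver-type Cyp3a genes, Cyp3a11 had 5, 1, 0, 5 and 0 counts, Cyp3a25 had 1, 0, 1, 0 and 5, and Cyp3a44 had 2, 0, 0, 0 and 17, and none was tested. Cyp2s1, an epithelial cytochrome, had 39.7 and 91.9 against 44.5, 55.4 and 46.3 CPM (-0.43 ± 0.39). Cyp2j6, of the Cyp2j group, had 22.7 and 7.94 against 29.9, 21.0 and 24.4 CPM (0.69 ± 0.48). For both genes the groups overlapped. Cyp4b1, a fatty acid hydroxylase, had 2.48 and 2.27 against 0.680, 15.9 and 7.91 CPM, high in 2 of the 3 propyzamide libraries and low in the other one.

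Cyp2u1 and Cyp2e1 had large fitted differences on few counts. Cyp2u1, a long-chain fatty acid hydroxylase, had 22 and 16 counts in vehicle against 2, 3 and 0 (-3.48 ± 0.96, edgeR adjusted p = 0.0748), and an antisense gene overlaps it. DESeq2 (adjusted p = 0.0454) and limma on log2(TPM + 1) (adjusted p = 0.0155) called it, and it passed in 3 of 15 refits in all. Cyp2e1, which oxidises ethanol and acetone, had 2 and 0 counts in vehicle against 3, 14 and 120, so that 1 library held most of its counts. Summed counts gave a 43.8-fold ratio (counting interval 11.9 to 366), and the test gave an edgeR adjusted p of 0.104, with 2 of 13 refits passing. Adipocyte markers were also highest in that library, with sums over 6 genes of 9.93, 18.2, 47.6, 103 and 303 CPM and Adipoq, a hormone of fat cells, at 29.8 CPM there and at most 3.59 CPM elsewhere. Cfd alone made up 192 CPM of the 303, and Plin1 and Lep went the other way, Plin1 with 2.48 and 2.84 against 0.340, 0 and 1.22 CPM and Lep with 2.48 and 1.70 CPM against 0. The part of those cells in the Cyp2e1 value was not tested.

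Several small groups had few counts, most of them in vehicle. The 5 Cyp2b genes, among them the phenobarbital-responsive Cyp2b10, held 19 and 8 counts in vehicle against 0, 0 and 4. The 8 Cyp4a genes, fatty acid omega-hydroxylases that PPAR-alpha drives in the liver, held 13 and 4 counts against 0, 1 and 0, of which Cyp4a29 had 7 and 1 in vehicle and Cyp4a10 had 2 and 1. The 4 Cyp2a genes held 12 and 9 counts against 1, 3 and 0, and Cyp2f2, a lung cytochrome, had 19 and 4 against 2, 2 and 0. The receptor background was likewise higher in vehicle, at 0.376 and 0.322 CPM per kb against 0.0199, 0.238 and 0.0848, and its part in these counts was not tested. Cyp2r1, a vitamin D hydroxylase, had 3, 0, 2, 1 and 1 counts.

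The 5 tested Ugt genes were led by Ugt2b34, a steroid- and drug-conjugating enzyme, and by Ugt1a7c of the shared Ugt1a locus. Ugt2b34 had 141 and 90.2 CPM in vehicle and 85.6, 115 and 109.6 CPM in propyzamide (-0.16 ± 0.35, edgeR adjusted p = 0.861). Ugt1a7c had 67.0 and 52.8 against 77.8, 34.9 and 114 CPM (0.33 ± 0.45, edgeR adjusted p = 0.761). Both genes overlapped between the groups, and the standard errors leave room for changes of either sign.

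Ugt1a1, the enzyme that conjugates bilirubin (chr1:88211959-88218997, plus strand), had 10.8 and 0 CPM in vehicle and 32.3, 43.6 and 91.3 CPM in propyzamide. All 3 propyzamide libraries were above both vehicle libraries, but the log2 fold change of 3.25 ± 0.83 did not pass (edgeR adjusted p = 0.0596). It passed in 5 of 16 refits, among them that without propyzamide replicate 1 (3.49, edgeR adjusted p = 0.0320), while DESeq2 gave an adjusted p of 0.313. It also passed without vehicle replicate 1 (edgeR adjusted p = 0.0256), but there the vehicle group is 1 library with 0 counts, which gives no fold. The Ugt1a genes use common final exons, and 58.2% of the 50-base words of Ugt1a1 occur in other genes, so counts can move between them. Single libraries held all counts of some relatives, as with Ugt1a10, at 22 counts in vehicle replicate 1, and Ugt1a2, at 18 counts in propyzamide replicate 2. Summed over the 8 Ugt1a members, the level was 91.4 and 69.2 CPM in vehicle and 123, 108 and 209 CPM in propyzamide, without overlap and with no test of its own. Ugt1a5 and Ugt1a6b stood at 0.24 ± 1.30 and 1.23 ± 0.85.

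Of the untested Ugt genes, Ugt2b5 had 0 and 1 counts in vehicle against 11, 4 and 9, or 15.4-fold more (counting interval 2.50 to 631). Ugt2b36 had 2 and 10 counts in propyzamide replicates 2 and 3 and no count elsewhere, and Ugt2b35 had 5, 2, 13, 3 and 7. Ugt2a3, known from small intestine and liver, had 1 count in all. Ugt8a, which makes the galactolipid of myelin, had 3, 5, 0, 2 and 0 counts, Ugt3a1 had 4, 2, 0, 0 and 0, and Ugt3a2 had 0, 2, 0, 0 and 0.

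The Gst family was the one measured most fully, with 18 of 22 genes tested, of which 0 passed by edgeR (4 at an unadjusted p under 0.05). Fitted values were negative for 14 of the 18 and positive for 4. Gsto2, at 0 in propyzamide, is the lowest whether taken as fitted or at the ratio to the floor given below, so the family's median is the same. Gstp1 had 253 and 138 CPM in vehicle and 233, 82.6 and 240 CPM in propyzamide (-0.08 ± 0.47, edgeR adjusted p = 0.954), and Gsto1, which reduces dehydroascorbate, had 177 and 117 against 234, 134 and 156 CPM (0.25 ± 0.38, edgeR adjusted p = 0.796). For both the groups overlapped. Gstp2 had 54.6 and 40.3 against 36.7, 5.65 and 29.2 CPM (-0.98 ± 0.56, edgeR adjusted p = 0.383). Gstp1 and Gstp2 have 98.1% coding identity and 62.3% of the 50-base words of Gstp1 occur in Gstp2, so the division between these 2 genes is uncertain.

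Of the 6 tested mu-class genes 5 were negative. Gstm1 had 157 and 105 CPM in vehicle and 92.8, 31.3 and 57.2 CPM in propyzamide, with every propyzamide library below both vehicle libraries (-1.11 ± 0.43, edgeR adjusted p = 0.194). Gstm2 had 43.8 and 36.9 against 35.7, 12.3 and 34.7 CPM (-0.55 ± 0.45), and Gstm5, the positive one, had 21.1 and 14.2 against 19.7, 34.4 and 31.7 CPM (0.68 ± 0.42). Gstm3 stood at -0.39 ± 0.71 and Gstm6 at -0.93 ± 0.82. The 7 Gstm genes summed to 285 and 187 CPM in vehicle and 204, 87.3 and 155 CPM in propyzamide, which overlap. Propyzamide replicate 2 had the lowest sum, but the highest Gstm5.

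The alpha-class genes did not move together. Gsta1 had 9.51 and 13.6 CPM in vehicle and 33.6, 8.21 and 38.4 CPM in propyzamide (1.22 ± 0.59), Gsta3 had 21.9 and 3.40 against 5.10, 2.05 and 1.22 CPM (-2.10 ± 0.83), and Gsta4, which conjugates lipid peroxidation products, had 33.1 and 9.08 against 22.4, 15.4 and 9.74 CPM (-0.41 ± 0.55). In all 3 genes the groups overlapped, and edgeR adjusted p ran from 0.202 to 0.763. Of the transcript words of Gsta1, 89.7% occur in other genes.

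Gstk1 and Gsto2 were the Gst genes nearest to the threshold, in opposite directions, and neither shares a 50-base word with another gene. Gstk1, the kappa-class enzyme of mitochondria and peroxisomes (chr6:42245935-42250447, plus strand), had 16.5 and 14.8 CPM in vehicle and 34.0, 49.8 and 56.0 CPM in propyzamide. Its groups were well separated, with a log2 fold change of 1.56 ± 0.40 (edgeR adjusted p = 0.0590; DESeq2 adjusted p = 0.0328), and 3 of 16 refits passed. Gsto2, a dehydroascorbate reductase (chr19:47865534-47886324, plus strand), had 8 and 11 counts in vehicle and 0 in all 3 propyzamide libraries. Its 19 vehicle counts set against the floor of 3 counts over the propyzamide group gave a ratio of 9.90-fold lower. The counting interval, which treats that floor as an observed count, ran from 2.91 to 52.2. The edgeR adjusted p was 0.0638 and the DESeq2 adjusted p was 0.0393, and 4 of 11 refits passed. Gsto1 and Gsto2 both overlap Cfap43 on the opposite strand, and no source used here states whether counting used strand. The theta-class genes Gstt1 and Gstt3 stood at -0.21 ± 0.55 and -0.76 ± 0.44.

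Of the 21 Sult genes 5 were tested, and 0 passed by edgeR, with 1 at an unadjusted p under 0.05. Sult1b1, which sulfates thyroid hormones and phenols, had 84.4 and 85.1 CPM in vehicle and 91.4, 156 and 99.8 CPM in propyzamide (0.45 ± 0.36, edgeR adjusted p = 0.566). Sult1a1, the phenol sulfotransferase, had 85.2 and 83.4 against 74.1, 83.7 and 55.4 CPM (-0.24 ± 0.34, edgeR adjusted p = 0.767). Sult1d1, a catecholamine sulfotransferase, had 53.4 and 35.7 against 57.1, 126 and 90.1 CPM (1.02 ± 0.41, edgeR adjusted p = 0.209). For Sult1b1 and Sult1d1 every propyzamide library was above both vehicle libraries, by as little as 57.1 against 53.4 CPM in Sult1d1, while Sult1a1 overlapped.

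Sult1c2 and Sult2b1, the latter a cholesterol sulfotransferase, stood at 0.12 ± 0.56 and 0.17 ± 0.44. The 8 Sult2a genes, bile acid sulfotransferases of the liver, held 2 counts in all, both in vehicle replicate 2. Sult4a1, a brain form, had 2 and 3 counts in vehicle against 11, 10 and 7, and Sult5a1 had 11 and 5 against 0, 2 and 0. Summed, the 21 Sult genes had 258 and 231 CPM in vehicle and 249, 397 and 284 CPM in propyzamide.

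**Figure D5:**
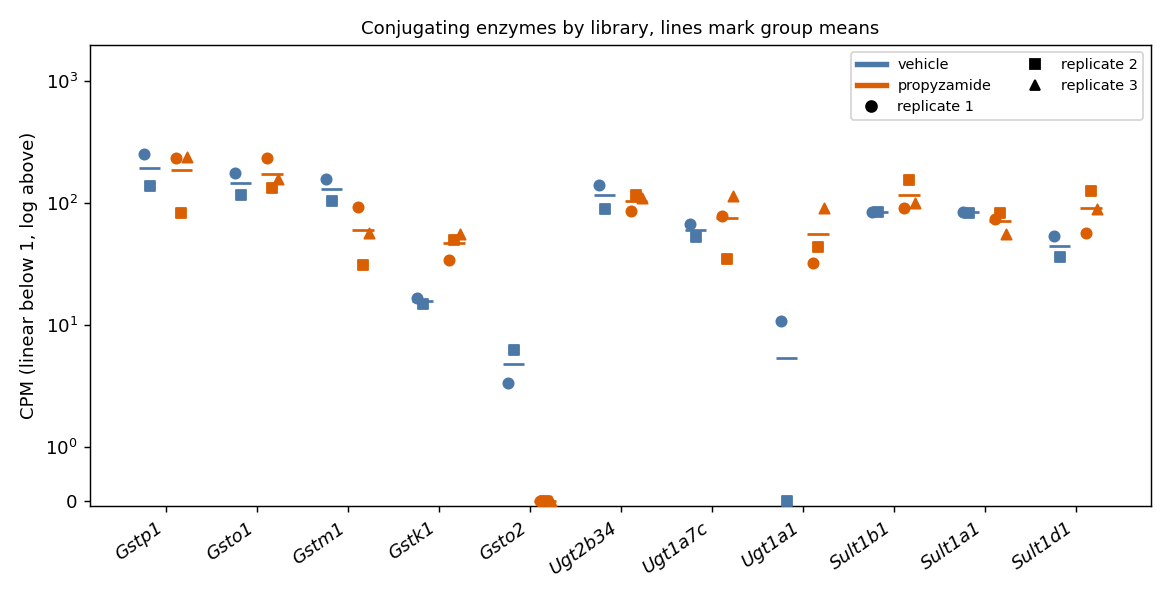
CPM of 11 conjugating enzymes, 1 point per library and a line at each group mean, on an axis that is linear below 1 and logarithmic above. Gstk1 and Ugt1a1 are higher and Gstm1 and Gsto2 lower in all 3 propyzamide libraries than in both vehicle libraries, while Gstp1, Gsto1, Ugt2b34, Ugt1a7c and Sult1a1 overlap.

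The genes that control, supply and complete this chemistry were read in the same fit, from lists chosen with earlier results of these data known. Of 13 receptors and regulators 1 rose, 0 fell and 12 did not pass, so 7.69% passed, against 1.90% of all genes. Cdx2, a homeobox factor of intestinal epithelium, had 2.90 and 1.13 CPM in vehicle and 20.7, 40.6 and 14.0 CPM in propyzamide (3.54 ± 0.68, edgeR adjusted p = 0.0274). With vehicle replicate 1, vehicle replicate 2 or propyzamide replicate 2 left out in turn the edgeR adjusted p was 0.166, 0.183 and 0.0539, and by limma it was 0.0514 and 0.0931 with the larger and smaller pseudocount. Nr1i3, the constitutive androstane receptor, had 17 and 16 counts in vehicle against 0, 2 and 0 (edgeR adjusted p = 0.0638), and passed in 6 of 15 refits. Nr1i2, the pregnane X receptor that drives Cyp3a genes, stood at 0.70 ± 0.57, Ahr, the dioxin receptor, at 0.43 ± 0.75, and Hnf4a at -0.055 ± 0.33, with 133 to 171 CPM in every library.

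Of 13 genes that supply cofactors 1 rose, 0 fell and 12 did not pass, so 7.69% passed, against 1.90% of all genes. Slc35d1, which carries UDP-glucuronic acid into the endoplasmic reticulum, had 9.51 and 19.3 CPM in vehicle and 40.1, 57.0 and 107 CPM in propyzamide (2.24 ± 0.51, edgeR adjusted p = 0.0478). The call passed in 8 of 16 refits and was lost without each library except propyzamide replicate 1, with edgeR adjusted p from 0.0569 to 0.410. The 2 preceding steps of UDP-glucuronic acid supply, Ugp2 and Ugdh, stood at 1.55 ± 0.42 (edgeR adjusted p = 0.0727) and 0.99 ± 0.42 (0.236). Por, the electron donor of all microsomal cytochrome P450 enzymes, stood at 0.41 ± 0.36, and Papss2, which makes the sulfate donor, at 0.77 ± 0.33.

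Of 22 tested enzymes of other phase 1 and 2 families 1 rose, 2 fell and 19 did not pass. The share that passed was 13.6%, against 1.90% of all genes. Aoc1, the diamine oxidase that degrades histamine, fell, with 208 and 124 CPM in vehicle against 18.0, 18.0 and 11.0 CPM (-3.39 ± 0.39, edgeR adjusted p = 0.00237). Adh1, an alcohol and retinol dehydrogenase, fell, with 400 and 573 CPM against 93.1, 55.9 and 79.1 CPM (-2.67 ± 0.38, edgeR adjusted p = 0.00643). Both passed in 16 of 16 refits. Ces2e, a carboxylesterase, rose, with 64.9 and 65.3 CPM against 139, 273 and 231 CPM (1.71 ± 0.40, edgeR adjusted p = 0.0495), but passed in 6 of 16 refits, and was lost without each library except propyzamide replicate 1, with edgeR adjusted p from 0.0773 to 0.360.

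None of 10 transporters passed in edgeR, and 3 had an unadjusted p under 0.05, as did 18.2% of all genes. Abcg2, an efflux pump of the apical membrane, came nearest with 26.9 and 13.1 CPM against 41.5, 99.1 and 46.3 CPM (1.62 ± 0.49, edgeR adjusted p = 0.104), and passed in 2 of 16 refits. Of 5 genes that cleave conjugates 1 rose, 0 fell and 4 did not pass, so 20% passed, against 1.90% of all genes. Dpep1, a dipeptidase that acts on glutathione conjugates and leukotriene D4, rose, with 20.3 and 28.4 CPM against 164, 254 and 122 CPM (2.89 ± 0.44, edgeR adjusted p = 0.00861). Left-out vehicle libraries ended the call, with an edgeR adjusted p of 0.143 for replicate 1 and 0.0560 for replicate 2, as did limma on log2(TPM + 0.1) (adjusted p = 0.0681).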

How the data were processed

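For each library the authors deposited RSEM output, an expected count and a TPM value per transcript, per the file headers. The submitters' processing notes name RSEM, kallisto and GRCm38 but no roles, and no source used here gives settings, annotation release or strand. The protocol for library making was SMART-Seq2, per the labels' protocols. Transcript values were summed per gene and the expected counts rounded. edgeR 4.0.16 (filterByExpr, trimmed-mean scaling, quasi-likelihood test) was fitted to all 5 libraries with group as the only term, and p-values were adjusted by Benjamini-Hochberg over 12024 genes. The 16 refits used other scalings and filters, a subtracted receptor background, DESeq2 1.42.0, limma 3.58.1 on log2(TPM + 1) and log2(TPM + 0.1), a replicate block, and each library left out. The fit was also run on simulated counts with 200 changed genes, drawn with the fitted spread. Such counts hold no effects of single libraries, so that run does not bear on them. Libraries of a group differed beyond counting noise, with a chi-square per degree of freedom of 16.0 to 31.6. The members, gene lists and tests were chosen with earlier results of these data known. Genes named were those that passed, those of smallest p or highest TPM in each subfamily, a listed set of well-known members, and, of the pathway lists, those that passed or came nearest. One Ugt1a gene is not reported here.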

Additional observations from a re-analysis of the deposited data

How the results depend on the processing

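The number of members that passed, 4 (2 higher, 2 lower), was 13 (7 and 6) with no filter, where 3.56% of all genes passed. It was 8 (4 and 4) by DESeq2 (4.70% of all genes) and 7 with 4 lower by limma on log2(TPM + 1) (4.08%). With the receptor background subtracted 1 was higher (0.957% of all genes passed). At an adjusted p of 0.1 it was 9 (5 and 4), but the share of all genes at that threshold was not counted. Leaving out 1 library gave 1 to 8 members, 1 to 6 of them higher and 0 to 2 lower. Members whose groups do not overlap numbered 18 in the main fit, 40 with no filter, and 21 to 35 when 1 library was left out. The share of all genes was counted only in the main fit (37.5%), so the larger numbers cannot be read as a result about the members. The cytochrome P450 median, 0.31, was -1.31 with no filter, where all genes had a median of -1.14, -0.10 by limma on log2(TPM + 1), -0.12 on log2(TPM + 0.1), and 0.048 to 0.47 with 1 library left out. The Gst median, -0.34, was -0.87 by limma on log2(TPM + 0.1), and turned to 0.11 without vehicle replicate 1 (-0.68 without vehicle replicate 2). The Ugt and Sult medians turned to -0.044 and -0.12 with no filter, and with 1 library left out the Ugt median ran from 0.20 to 1.85 and the Sult median from 0.10 to 0.42. The medians of all genes by limma were -0.39 and -0.47. The cause of these differences was not tested.

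With the replicate number as a block 7 members passed, 5 of them higher, and the Ugt median was 1.51. In that fit 639 of all 12024 genes passed (5.31%, against 1.90% in the main fit). The correlation of deviations between libraries of 1 number was 0.170 and 0.147 over only 2 shared numbers, too few to show whether the numbers pair the libraries, and no label ties them.

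Among single genes the sign turned only for those that did not pass: Sult1c2 was -0.0056 with upper-quartile scaling, -0.27 and -0.28 by limma with the larger and smaller pseudocount, and -0.29 with the block. By limma, in the same order, Cyp4f13 was 0.056 and 0.083, Cyp4f16 -0.15 and -0.16, Cyp4f40 -0.39 and -0.48, Gsto1 -0.094 and -0.094, Ugt1a7c -0.23 and -0.24, and Arsa, a sulfatase, -0.046 and -0.074. Cyp4b1 was -0.12 on log2(TPM + 0.1), and Gstp1 was 0.055 with no filter. With the block Cyp4f40 was -0.090, Gsta4 0.016 and Ugt1a7c -0.17. With 1 library left out, values ran from -0.056 to 0.51 for Cyp4f16, -0.98 to 0.80 for Gsta4, -1.61 to 0.40 for Gstm3, -0.39 to 0.40 for Gstp1, -0.76 to 0.93 for Gstt1, -1.02 to 6.87 for Ugt1a5, -0.40 to 0.18 for Ugt2b34, -0.94 to 0.35 for Cyp2s1, -0.31 to 0.44 for Sult1c2, -0.064 to 0.56 for Gsto1, -0.086 to 0.67 for Ugt1a7c and -2.05 to 0.45 for the transporter Slco2a1. The high end for Ugt1a5 comes from leaving out vehicle replicate 2. It gives no fold, since Ugt1a5 had 0 counts in vehicle replicate 1. At this depth 95 of 142 members had too few counts for the test.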
